A study of Mus musculus with 12 samples.

Results

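The unfolded protein response was examined through 34 genes, chosen by name for their role in this response, among the 24060 genes measured in 12 mouse rhabdoid tumors. All 34 genes were listed in every tumor and passed the filter on low values. They were divided into 3 sensors (Ern1, Atf6 and Eif2ak3), 14 genes of the ATF6/chaperone arm, 8 genes of the IRE1/XBP1 arm, 8 genes of the PERK/ATF4 arm and Sesn1, a stress-induced gene placed in no arm. Many of these genes answer to more than one sensor, so the arms are a convention for describing them.

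The tumors arose in P0-CreC;Smarcb1flox/flox mice kept on the FVB/N background, in which Cre recombinase driven by the P0 promoter deletes Smarcb1, a subunit of the SWI/SNF chromatin remodeling complex, from cells of the neural crest lineage. By the location given for each, 4 tumors were retro-orbital, 3 were from the cheek, 3 from the meninges, 1 from the vestibular N and 1 from the trigeminal N. All of them were untreated tumors of this genotype, dissected and frozen, without a sample of normal tissue, so the levels below are comparisons among tumors. The age of the mice and whether any pair of tumors came from the same animal are not given for the samples, and cheek 2 and cheek 3, cheek 1 and meninges 1, and retro-orbital 3 and trigeminal N 1 share the first part of their identifiers. The p-values take each tumor as an independent unit and apply to these tumors. They may be too small if any of the tumors came from the same animal.

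Proteins that enter the endoplasmic reticulum fold there with the help of chaperones, and unfolded protein sets off 3 sensors in the membrane. IRE1 (Ern1) splices the mRNA of Xbp1 and so makes an active transcription factor. ATF6 is carried to the Golgi apparatus, where it is cut and releases a factor that raises chaperones. PERK (Eif2ak3) phosphorylates eIF2 alpha, which lowers translation in general while that of Atf4 increases. ATF4 and its target CHOP (Ddit3) then act on amino acid supply, redox balance and cell death. Splicing, cleavage and phosphorylation are not seen in gene-level RNA values, so levels of mRNA alone were compared here. In bulk tumors, fewer cells of a type and less RNA per cell cannot be told apart.

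The factors of the response bind short sequences near the start of their targets, which are shown here because genes of the arms share them. Promoter sequences from RefSeq on GRCm38.p6, running from 250 bases before to 50 bases after the annotated start, were found for 31 of the 34 genes, with Ero1l under the symbol Ero1a. The endoplasmic reticulum stress element (ERSE), read as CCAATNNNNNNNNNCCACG on either strand, was present for 9 of the 31 genes and in 0.119% of all 32851 promoters. These were Hspa5, Hsp90b1, Calr, Canx, Pdia6 and Creld2 among the 12 genes of the ATF6/chaperone arm with a promoter, and Dnajc3, Syvn1 and Derl3 among the 8 of the IRE1/XBP1 arm. None of the 8 promoters of the PERK/ATF4 arm had it. In the following windows the element is in capitals, read in the direction in which it matches, with 5 bases on either side.
Hspa5, chr2:34772020-34772048, plus strand: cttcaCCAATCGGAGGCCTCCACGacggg
Hsp90b1, chr10:86705633-86705661, minus strand: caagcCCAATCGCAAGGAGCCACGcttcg
Hsp90b1, chr10:86705528-86705556, plus strand: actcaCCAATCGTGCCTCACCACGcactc
Calr, chr8:84847070-84847098, plus strand: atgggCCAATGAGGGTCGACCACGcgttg
Canx, chr11:50325795-50325823, minus strand: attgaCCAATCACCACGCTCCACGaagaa
Pdia6, chr12:17266486-17266514, plus strand: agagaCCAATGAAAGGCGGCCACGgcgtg
Derl3, chr10:75893237-75893265, minus strand: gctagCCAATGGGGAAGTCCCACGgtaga

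The last base of the Hspa5 element lay 47 bases before the annotated start of the gene. The 250 bases before that start (chr2:34771840-34772089, plus strand), again with the element in capitals, also hold a match to TGACGTG, the core of the element bound by XBP1 and ATF6, from 157 to 151 bases before the start.
Hspa5 promoter: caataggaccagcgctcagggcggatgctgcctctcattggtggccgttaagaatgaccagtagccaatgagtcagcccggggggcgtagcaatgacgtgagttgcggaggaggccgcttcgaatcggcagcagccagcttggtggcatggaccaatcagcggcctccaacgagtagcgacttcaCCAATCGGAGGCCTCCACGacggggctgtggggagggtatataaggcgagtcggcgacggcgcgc

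Of the 31 genes, Hspa5 alone held the core TGACGTG, which was present in 2.01% of all promoters. The second form of the stress element, ATTGGNCCACG, was found for Herpud1 and Dnajb11 and in 0.0365% of all promoters. The core TGATGNAA of the element to which ATF4 and its partners bind (CARE) was found in 5 promoters, those of Atf3, Trib3, Chac1 and Asns in the PERK/ATF4 arm and that of Herpud1, against 3.97% of all promoters. The windows are shown because Herpud1 carries both kinds of element, which Atf3, Chac1 and Asns do not.
Herpud1 ERSE-II, chr8:94386372-94386392, plus strand: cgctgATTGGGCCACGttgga
Herpud1 CARE, chr8:94386312-94386329, minus strand: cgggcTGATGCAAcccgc
Atf3 CARE, chr1:191183431-191183448, plus strand: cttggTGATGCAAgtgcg
Chac1 CARE, chr2:119351044-119351061, minus strand: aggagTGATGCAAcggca
Asns CARE, chr6:7693220-7693237, minus strand: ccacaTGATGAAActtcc

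**Figure D1:**
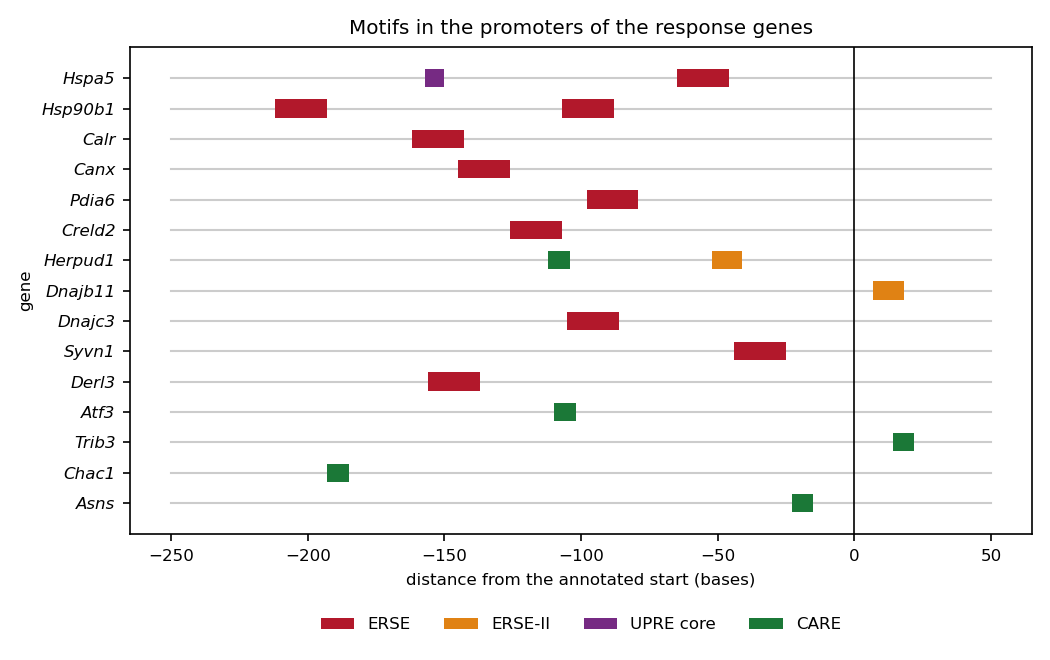
Positions of the 4 kinds of motif in the promoters that hold at least one, as distance in bases from the annotated start of the gene (x axis), with 1 line per gene and a bar for each match on either strand. The ERSE matches of the ATF6/chaperone and IRE1/XBP1 genes all lie before the start, and the CARE matches fall in Herpud1 and 4 genes of the PERK/ATF4 arm.

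The values were deposited as RPKM, reads scaled to the length of the transcript and to the total of the tumor, so levels can be compared between genes. The total of reads behind these values, recovered for each tumor, was between 13206168 and 57128422, and 12575 to 14528 genes reached 1 RPKM. At the recovered totals, 33.2% to 41.1% of the low values checked were whole numbers of reads. The totals and the read numbers below are therefore estimates. The least covered of the 34 genes was Derl3, with 9 reads in its lowest tumor, and Trib3 had between 22 and 198 reads. Residual Smarcb1 was at 1.70 to 6.31 RPKM. The gene-level value does not separate the deleted part of the gene from the rest, nor tumor cells from other cells, so it does not check the deletion. Cheek 2 and cheek 3 were close in most of what follows. Over the 34 genes their read numbers still differed by more than counting noise, with a chi-square of 11.4 times its degrees of freedom. It was 122.5 times for cheek 1 and cheek 2 and 46.4 times for cheek 1 and cheek 3. This ratio grows with the number of reads, and cheek 3 had the lowest total. It does not settle whether cheek 2 and cheek 3 came from 1 animal, and both were used.

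The chaperones dominated the response in level. Over the 12 tumors, 6 genes stayed above 100 RPKM in every tumor, all in the ATF6/chaperone arm. These were Calr and Canx, lectin chaperones of glycoproteins, Hspa5 (BiP), the main Hsp70 chaperone of the endoplasmic reticulum, Hsp90b1 (GRP94), its Hsp90 counterpart, and Pdia3 and P4hb, which form and exchange disulfide bonds. The mean of Calr was 580 ± 156 RPKM (SD, n = 12), that of P4hb 422 ± 76.1 RPKM and that of Hsp90b1 383 ± 105 RPKM. Hspa5 followed Pdia3 (323 ± 91.3 RPKM) with 286 ± 54.5 RPKM, a difference within the spread between tumors. At the other end, Trib3, a pseudokinase induced by ATF4, had a mean of 1.53 ± 0.90 RPKM, and Chac1, which degrades glutathione, one of 3.61 ± 0.94 RPKM. The sensors themselves were low and close together, with means of 12.1 ± 5.07 RPKM for Ern1, 10.5 ± 2.89 RPKM for Atf6 and 17.0 ± 4.07 RPKM for Eif2ak3.

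The highest tumor exceeded the lowest by a median of 2.59-fold per gene, from 1.59-fold for Sel1l to 62.5-fold for Derl3. By the SD of log2(RPKM + 1), the scale used for every comparison, the median of the 34 genes was 0.39, against 0.48 over the 15043 genes that passed the filter. The arms differed in this respect as a description, with 0.39 for the ATF6/chaperone arm, 0.37 for the IRE1/XBP1 arm and 0.56 for the PERK/ATF4 arm. Of the 7 genes that spanned more than 4-fold, 5 belonged to the PERK/ATF4 arm, namely Trib3, Atf3, Ero1l, Asns and Ppp1r15a.

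**Figure D2:**
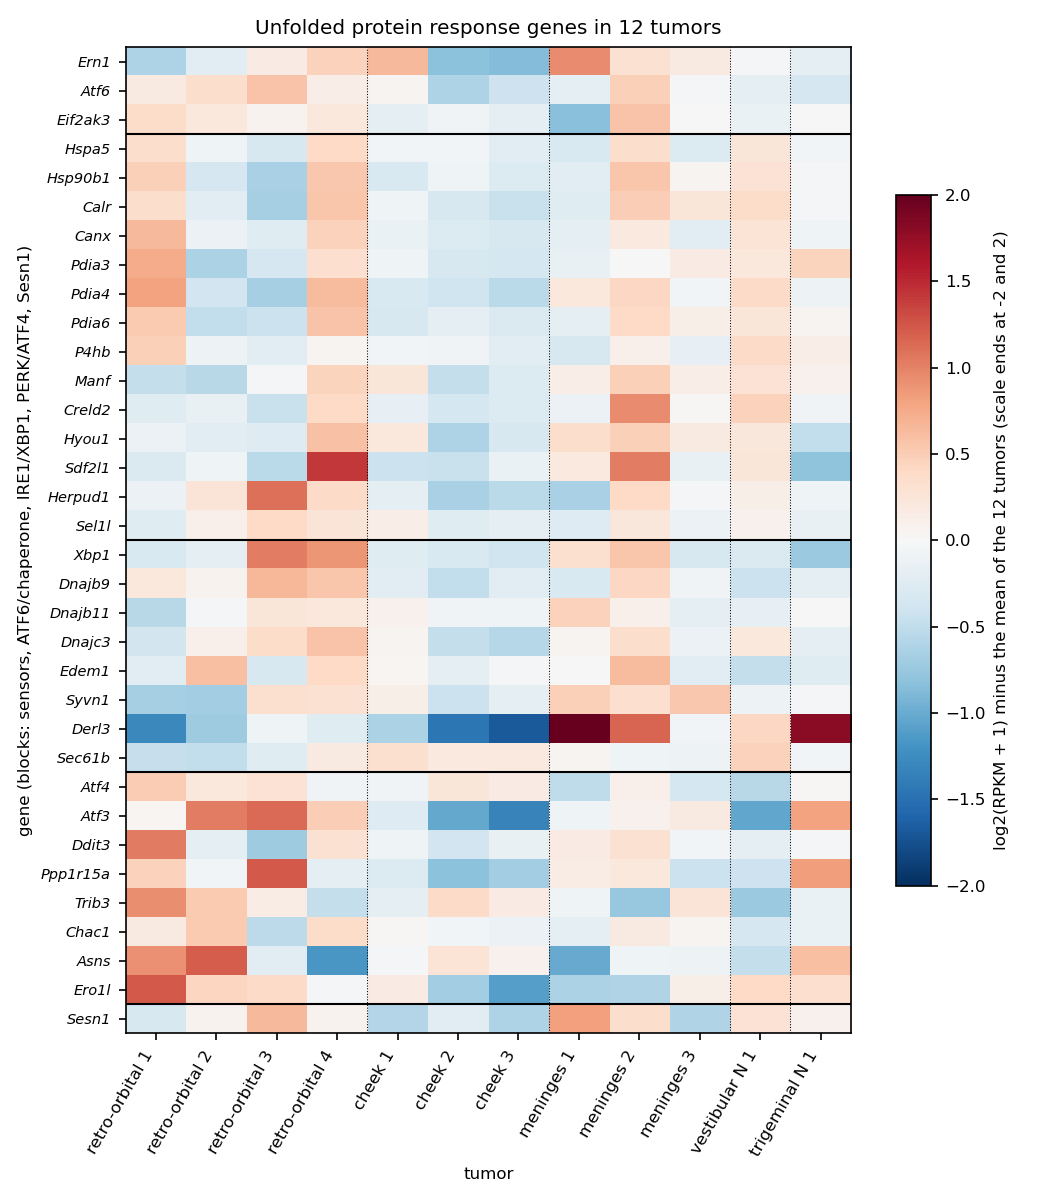
Level of each of the 34 genes (rows, in blocks by sensors, arms and Sesn1) in each of the 12 tumors (columns), as log2(RPKM + 1) minus the gene's mean over the 12 tumors. Red is above and blue below that mean. Derl3 spans the widest range, with its value in meninges 1 beyond the end of the scale, and cheek 2 and cheek 3 are below the mean for most genes.

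Hspa5 was at 358, 265, 225 and 370.4 RPKM in retro-orbital tumors 1 to 4, at 272, 270.1 and 244 RPKM in the cheek tumors, at 229, 361 and 233 RPKM in the meninges tumors, at 332 RPKM in the vestibular N tumor and at 272 RPKM in the trigeminal N tumor. Retro-orbital 1 and 4, meninges 2 and the vestibular N tumor thus stood above the other 8, with a gap between 272 and 332 RPKM, and the locations overlapped. Hsp90b1 showed the same 4 tumors on top, at 517, 540.1, 542 and 452 RPKM, while its other values lay between 235 and 385 RPKM. Calr was also highest in these 4 tumors, at 714, 821, 786 and 723 RPKM, against 355 to 664 RPKM elsewhere. Pdia4, a protein disulfide isomerase, was highest in retro-orbital 1 at 173 RPKM and lowest in retro-orbital 3 at 62.1 RPKM, 2.78-fold apart.

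Other genes of the arm followed other orders. Creld2, a disulfide isomerase, was at 51.0 RPKM in meninges 2, 36.1 RPKM in the vestibular N tumor and 34.5 RPKM in retro-orbital 4, and between 18.8 and 26.5 RPKM in the other 9. Sdf2l1, a cofactor of BiP, was at 33.0 RPKM in retro-orbital 4 and 25.1 RPKM in meninges 2, and no other tumor exceeded 14.2 RPKM. Hyou1, a nucleotide exchange factor for BiP, was at 43.0 RPKM in retro-orbital 4, 39.8 RPKM in meninges 2 and 36.3 RPKM in meninges 1, at 32.1 to 33.1 RPKM in meninges 3, cheek 1 and the vestibular N tumor, and at 18.1 to 25.9 RPKM in the other 6. Manf is a secreted stress factor. Retro-orbital 1, high for the large chaperones, was among the lower tumors for Manf (30.9 RPKM, range 29.6 to 61.2 RPKM) and Sdf2l1 (9.43 RPKM).

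Herpud1 and Sel1l, which belong to the machinery that returns misfolded proteins to the cytosol for degradation, followed another order. Herpud1 was highest in retro-orbital 3 at 91.5 RPKM, the tumor with the lowest Hspa5, and the next tumor, meninges 2, had 55.9 RPKM. Its lowest values were 26.6 RPKM in cheek 2 and 26.7 RPKM in meninges 1. Sel1l was highest in the same tumor at 49.5 RPKM and varied least of all 34 genes.

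In the IRE1/XBP1 arm, Xbp1 was at 145 RPKM in retro-orbital 3, 132 RPKM in retro-orbital 4, 105 RPKM in meninges 2 and 88.9 RPKM in meninges 1, and between 41.8 and 62.9 RPKM in the other 8. Dnajb9 (ERdj4), a cochaperone and established target of spliced Xbp1, was at 38.6, 35.7 and 32.4 RPKM in the first 3 of these tumors but at only 19.3 RPKM in meninges 1. Its range over the remaining tumors was 16.8 to 27.9 RPKM. In meninges 2 the plasma cell transcripts Igj and Mzb1 reached 240.5 and 11.2 RPKM. Outside it, Igj did not exceed 8.58 RPKM, its value in retro-orbital 3, and Mzb1 did not exceed 1.07 RPKM, its value in retro-orbital 4. Tnfrsf17, another plasma cell marker, was under 1 RPKM in all 12. Summed over the 6 plasma cell genes found, the level was 67.2 to 298 RPKM in the retro-orbital, 36.6 to 481 RPKM in the cheek and 146 to 450.1 RPKM in the meninges tumors, most of it Sdc1, which epithelial cells also make. Plasma cells have high Xbp1, and their part in the value of meninges 2 was not tested.

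Derl3, a component of the export channel for misfolded proteins, had by far the widest range. It was at 31.9 RPKM in meninges 1, 16.0 RPKM in the trigeminal N tumor and 9.93 RPKM in meninges 2, and at 0.510 and 0.780 RPKM in cheek 3 and cheek 2. In meninges 1 and the trigeminal N tumor Igj was at 0.242 and 0.472 RPKM and Mzb1 at 0.0401 and 0.156 RPKM, and Tnfrsf17 was listed at 0 in both. Sdc1, of the same list, was at 377 and 344 RPKM in these tumors, exceeded only by 479 RPKM in cheek 1, and the part of plasma cells in the Derl3 values was not tested. Syvn1 (HRD1), the ubiquitin ligase of the same machinery, was highest in meninges 3 at 12.6 RPKM and meninges 1 at 12.0 RPKM and lowest in retro-orbital 2 and 1, at 4.79 and 4.89 RPKM. Edem1, which selects glycoproteins for degradation, was highest in meninges 2 (24.2 RPKM) and retro-orbital 2 (23.5 RPKM). Dnajb11, Dnajc3 and Sec61b, 2 cochaperones and a subunit of the translocation channel, varied by 2.07-fold, 2.26-fold and 1.99-fold.

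In the PERK/ATF4 arm, Atf4 itself varied by 2.09-fold. Its highest values were 149.8 RPKM in retro-orbital 1 and 129 RPKM in retro-orbital 3, and its lowest were 71.7 RPKM in the vestibular N tumor and 73.3 RPKM in meninges 1. Asns, the asparagine synthetase and an established ATF4 target, was at 62.3, 76.8, 28.2 and 14.1 RPKM in retro-orbital tumors 1 to 4, so that 1 location held both its highest and its lowest values. The cheek tumors lay between at 32.0, 39.7 and 34.9 RPKM, the meninges tumors were at 15.7, 30.7 and 30.5 RPKM, and the vestibular N and trigeminal N tumors at 23.3 and 50.1 RPKM. Trib3 was highest in the same pair of retro-orbital tumors, at 3.56 and 2.42 RPKM, and lowest in meninges 2 at 0.408 RPKM.

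Ddit3, which encodes CHOP and is tied to cell death under prolonged stress, was at 39.9 RPKM in retro-orbital 1, and the next tumor, retro-orbital 4, had 23.8 RPKM. It was lowest in retro-orbital 3 at 11.2 RPKM, and the remaining 9 tumors lay between 14.3 and 23.6 RPKM. Ero1l, an oxidase that recharges the disulfide isomerases and is also raised by low oxygen, was likewise highest in retro-orbital 1, at 44.8 RPKM, and lowest in cheek 3 at 8.14 RPKM. The summed level of 8 hypoxia response genes was 299 RPKM in retro-orbital 1, its highest value, and 64.3 RPKM in cheek 3. The sum was 75.5 to 299, 64.3 to 114 and 61.1 to 224 RPKM over the retro-orbital, cheek and meninges tumors. Slc2a1, Bnip3 and Pdk1 were highest in retro-orbital 1, at 146, 77.1 and 21.1 RPKM. Adm, Car9, Egln3 and Ndrg1 were highest in retro-orbital 3 and Ankrd37 in retro-orbital 2. The part of the hypoxia response in the Ero1l values was not tested. Chac1 varied by only 2.58-fold.

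Atf3, a stress-induced repressor, and Ppp1r15a (GADD34), which brings the phosphatase back to eIF2 alpha, were both highest in retro-orbital 3, at 14.3 and 45.3 RPKM, where Ddit3 was lowest. Ppp1r15a followed at 34.4 RPKM in the trigeminal N tumor and 26.3 RPKM in retro-orbital 1, with all others between 10.2 and 22.0 RPKM. Atf3 was at 13.1 RPKM in retro-orbital 2 and 11.2 RPKM in the trigeminal N tumor, and at 1.76 and 2.40 RPKM in cheek 3 and cheek 2. Sesn1 was highest in meninges 1 at 25.5 RPKM and varied by 2.90-fold.

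The level of an arm in a tumor was taken as the mean over its genes of log2(RPKM + 1) minus each gene's mean, without a test. The ATF6/chaperone arm was highest in retro-orbital 4 (0.50), meninges 2 (0.43), the vestibular N tumor (0.27) and retro-orbital 1 (0.20), and lowest in cheek 2 and cheek 3 (-0.32 and -0.31). The IRE1/XBP1 arm was highest in meninges 1 (0.48), meninges 2 (0.44) and retro-orbital 4 (0.36), and lowest in retro-orbital 1 (-0.46). With the median over genes in place of the mean, meninges 1 moved from rank 1 to rank 4 in this arm. The PERK/ATF4 arm was highest in retro-orbital 1 (0.66) and retro-orbital 2 (0.46), and lowest in the vestibular N tumor (-0.42). Retro-orbital 1 therefore combined the highest level of the PERK/ATF4 arm with the lowest of the IRE1/XBP1 arm. Meninges 2 was high in the ATF6/chaperone and IRE1/XBP1 arms but at -0.07 in the PERK/ATF4 arm. Cheek 2 and cheek 3 were below the mean in all 3 arms. So, by less, were cheek 1 (-0.11, -0.06 and -0.09) and meninges 3 (-0.01, -0.07 and -0.04).

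**Figure D3:**
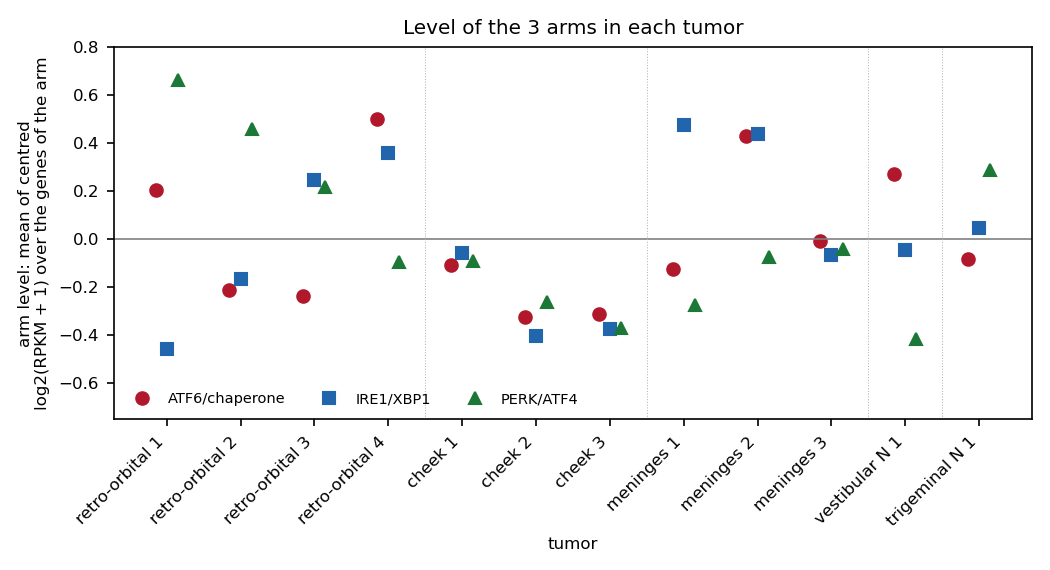
Level of the 3 arms (circles, squares and triangles) in each tumor (x axis), as the mean over the genes of the arm of log2(RPKM + 1) minus the gene's mean over the 12 tumors. Zero is the mean of the tumors, and dotted lines separate the locations. Retro-orbital 1 has the highest PERK/ATF4 value (0.66) and the lowest IRE1/XBP1 value (-0.46).

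In these 2 cheek tumors, summed levels of neuron and skeletal muscle markers were also highest, at 451 and 373 RPKM for 6 neuron genes and 586 and 304 RPKM for 8 muscle genes, against 16.6 to 69.0 and 12.1 to 285 RPKM elsewhere. Nefl alone gave 412 and 335 RPKM of the neuron sums, while Syt1, another gene of that list, was lowest in these tumors, at 0.242 and 0.220 RPKM. The muscle genes did not all peak there either. Acta1, Ckm, Mylpf and Tnnc2 were highest in cheek 2, with Acta1 at 196 RPKM. Tnnt3 was highest in meninges 1 (165 RPKM), Myh1 in meninges 3 (154 RPKM), Myh4 in the vestibular N tumor and Actn3 in the trigeminal N tumor. In cheek 1 the sums were 16.6 RPKM for the neuron genes, the lowest of the 12 tumors, and 32.1 RPKM for the muscle genes. The part of other tissue in the arm levels of the cheek tumors was not tested. The 8 macrophage and leukocyte markers were present in every tumor, with sums from 511 RPKM in the vestibular N tumor to 2348 RPKM in retro-orbital 2, and of 5 erythroid genes Alas2 was at 2.34 to 11.5 RPKM. The other 4, all globins, were listed at exactly 0 in every tumor, and these values were not read as levels.

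Whether the genes of an arm rise and fall together was described by Pearson's r between each pair of genes over the 12 tumors, on the log2(RPKM + 1) scale. The tumors share a platform and a depth scaling, so r is read beside that of all gene pairs, whose median was 0.05 with 7.07% over 0.6. Within the ATF6/chaperone arm, the median of 91 pairs was 0.58, and 44 pairs exceeded 0.6. It was 0.34 for the 28 pairs of the IRE1/XBP1 arm (5 over 0.6, 17.9%) and 0.23 for the 28 pairs of the PERK/ATF4 arm (3 over 0.6, 10.7%). The share of the PERK/ATF4 arm lay near the 7.07% of all gene pairs. Between arms, the median was 0.18 for the 112 pairs of ATF6/chaperone with IRE1/XBP1 (12 over 0.6). It was -0.02 for the 112 pairs of ATF6/chaperone with PERK/ATF4 (10 over 0.6). For the 64 pairs of IRE1/XBP1 with PERK/ATF4 it was -0.10 (2 over 0.6). With location means removed in the 10 tumors of the 3 larger locations, the median was 0.59 in the ATF6/chaperone arm and rose to 0.61 in the IRE1/XBP1 arm, with 15 of 28 pairs over 0.6. Among the 8 tumors below the gap in Hspa5, the ATF6/chaperone median was 0.18 with 18 of 91 pairs over 0.6. These tumors were chosen after the data were seen, by a gene of the arm itself, which narrows its range, so this value is a description.

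**Figure D4:**
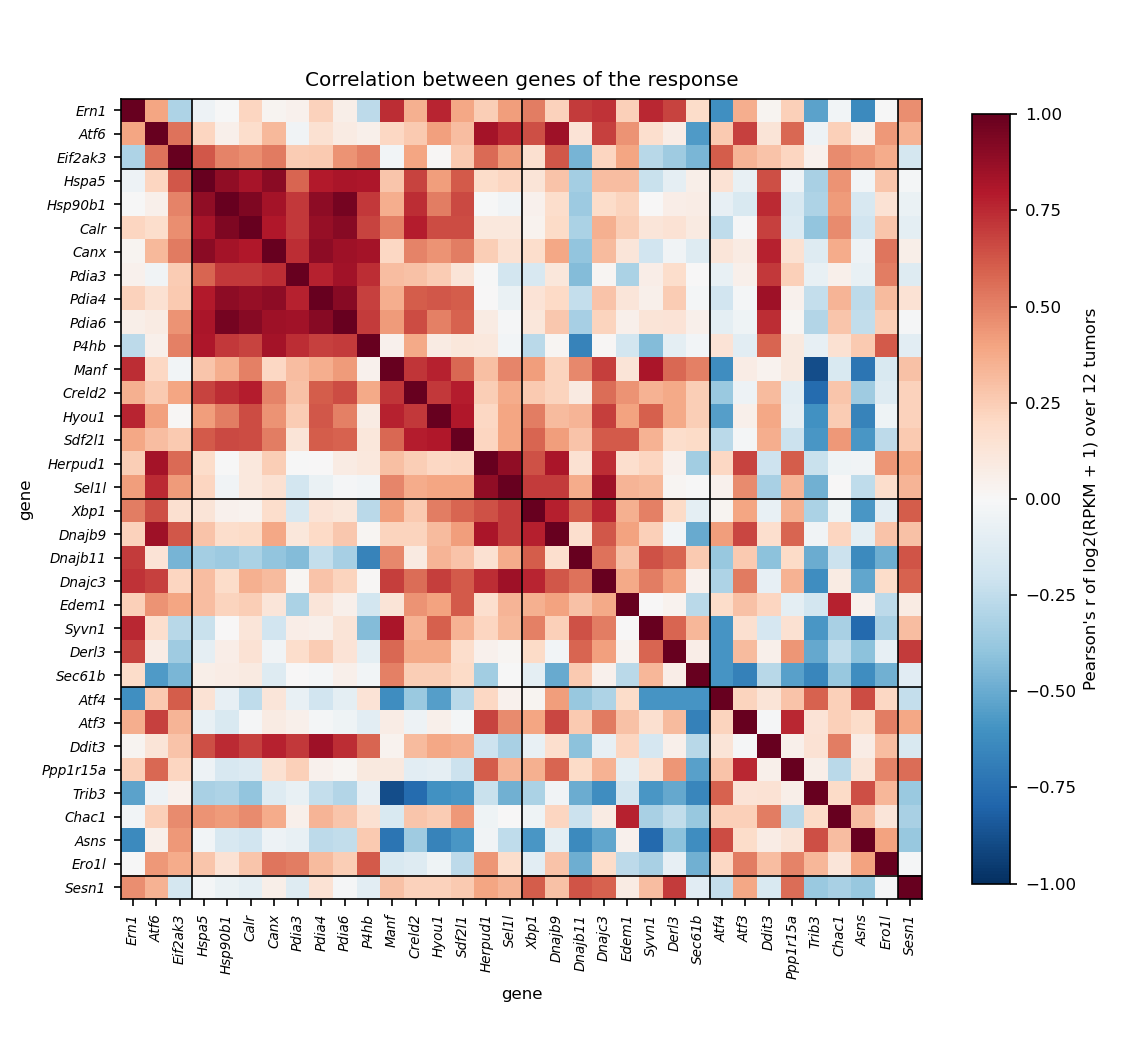
Pearson's r between each pair of the 34 genes over 12 tumors, on the log2(RPKM + 1) scale, with genes in the same order on both axes and lines between the sensors, the arms and Sesn1. The large chaperones from Hspa5 to P4hb form a red block that Ddit3 joins, while Herpud1 and Sel1l are paler there and red against Atf6, Xbp1, Dnajb9 and Dnajc3.

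The matrix set apart genes that share an arm by name. The pairs with the highest r were Hsp90b1 and Pdia6 (0.96), Calr and Hsp90b1 (0.94) and Pdia4 and Pdia6 (0.91). Herpud1 had an r of 0.18 with Hspa5, 0.82 with Dnajb9 and 0.83 with Atf6, and Sel1l had an r of 0.21, 0.70 and 0.74 with the same genes. Ern1 was closest to Hyou1 (0.76), Syvn1 (0.75), Manf (0.74) and Dnajc3 (0.72), and had an r of -0.05 with Hspa5. The lowest r of all was that of Manf and Trib3 (-0.88), followed by Asns and Syvn1 (-0.77). Atf4 had an r of 0.59 with Trib3 and of -0.62 with Manf. These pairs were picked from the matrix after their values were seen and have no test.

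Of 21 pairs of genes tested for a correlation over the 12 tumors, by a two-sided permutation test of r with Benjamini-Hochberg adjustment over the 21, 5 passed 0.05. With rho in place of r, only Fos and Ppp1r15a passed. The adjusted permutation p of rho was 0.066 for Hspa5 and Hsp90b1 and 0.066 for Fos and Atf3. It was 0.089 for Atf3 and Ppp1r15a and 0.19 for Xbp1 and Dnajb9. The pairs were chosen with earlier results of these data known, which the adjustment does not cover. Hspa5 and Hsp90b1 had an r of 0.88 (permutation p = 0.00041, adjusted p = 0.0043, Spearman's rho 0.76, permutation p = 0.0067), and 0.80 without the 2 tumors farthest from the median of Hspa5. It was between 0.85 and 0.95 when any 1 tumor was left out. Among the 8 tumors below the gap in Hspa5 it was 0.31, which is given without a test because the choice narrows the range of Hspa5. With location means removed r was 0.94 (exact permutation within locations, p = 0.0081, adjusted p = 0.17, the smallest possible p being 0.0012).

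Xbp1 and Dnajb9 had an r of 0.77 (permutation p = 0.0041, adjusted p = 0.022, rho 0.56, permutation p = 0.063), and 0.45 without retro-orbital 3 and 4, the tumors farthest from the median of Xbp1. When 1 tumor was left out, the pair no longer passed in 3 of 12 cases, those without retro-orbital 3 (adjusted permutation p = 0.092), retro-orbital 4 (0.053) or meninges 2 (0.056). Among the 8 tumors with the lowest Xbp1 r was 0.17, without a test since the range of Xbp1 is narrowed there too. Of the tested pairs, none that joined a sensor and a target passed. The r of Ern1 and Dnajb9 was 0.23 (permutation p = 0.47, rho 0.22, p = 0.50), that of Atf6 and Hspa5 0.21 (permutation p = 0.51, rho 0.12, p = 0.72) and that of Eif2ak3 and Ddit3 0.29 (permutation p = 0.34, rho 0.30, p = 0.34), each with an adjusted p of 0.62 or more.

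None of the tested pairs of markers from different arms passed the adjusted threshold over the 12 tumors. Hspa5 and Ddit3 had an r of 0.64 (permutation p = 0.016, adjusted p = 0.057, rho 0.57, permutation p = 0.055), and passed without meninges 1 (r 0.74, adjusted permutation p = 0.019) or without the vestibular N tumor (r 0.72, adjusted permutation p = 0.035). Among the 8 tumors below the gap in Hspa5 it was 0.12, again in a narrowed range and without a test. Hspa5 and Dnajb9 had an r of 0.29 (permutation p = 0.36, adjusted p = 0.62, rho 0.18, permutation p = 0.57) and Dnajb9 and Ddit3 one of 0.17 (permutation p = 0.61, adjusted p = 0.75, rho 0.29, permutation p = 0.35). When 1 tumor was left out, these values ranged from 0.10 to 0.64 and from 0.06 to 0.63. Both were highest without retro-orbital 3, with an adjusted permutation p of 0.097 each, so their size depends on 1 tumor.

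Within the PERK/ATF4 arm, Atf4 and Asns had an r of 0.65 (permutation p = 0.021, adjusted p = 0.063, rho 0.62, permutation p = 0.038), and 0.51 without the vestibular N tumor and meninges 1. Ddit3, in contrast, had an r of 0.13 with Atf4, 0.15 with Trib3, 0.08 with Asns and 0.51 with Chac1, with adjusted p of 0.77, 0.77, 0.86 and 0.24 in the permutation test. The corresponding rho was -0.17, -0.22, -0.13 and 0.44 (permutation p = 0.59, 0.50, 0.69 and 0.15). Trib3 and Asns had an r of 0.65 in the matrix. Without retro-orbital 1, the r of Ddit3 with Atf4, Trib3 and Asns was -0.42, -0.55 and -0.39. None of these passed the adjusted threshold, so the sign of the r of Ddit3 with these genes depends on 1 tumor.

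Atf3 and Ppp1r15a were compared with Fos, an immediate early gene that rises within minutes of handling or stress. Fos was at 43.6 RPKM in retro-orbital 3, 34.1 RPKM in the trigeminal N tumor, 26.0 RPKM in meninges 1 and 25.4 RPKM in retro-orbital 1, and between 8.61 and 19.2 RPKM in the other 8. Fos and Ppp1r15a had an r of 0.92 (permutation p = 2e-05, adjusted p = 0.00042, rho 0.89, permutation p = 0.00028, adjusted p = 0.0059). It was 0.82 without the 2 tumors farthest from the median of Fos and 0.80 with location means removed (exact permutation within locations, p = 0.035, adjusted p = 0.35). Fos and Atf3 had an r of 0.72 (permutation p = 0.0089, adjusted p = 0.038, rho 0.73, permutation p = 0.0094) and Atf3 and Ppp1r15a one of 0.76 (permutation p = 0.0042, adjusted p = 0.022, rho 0.69, permutation p = 0.017). With location means removed these became -0.04 and 0.33, with an exact permutation p of 0.94 and 0.49, so neither held within locations. Without retro-orbital 3 they had an adjusted permutation p of 0.097 and 0.092, and of 12 cases with 1 tumor left out they no longer passed in 7 and 5. Both lost the call also without cheek 2, cheek 3, meninges 2 or the trigeminal N tumor, and Fos and Atf3 without retro-orbital 4 or the vestibular N tumor. The summed level of the 9 genes of rapid response to handling and heat was also highest in retro-orbital 3, at 430 RPKM, and lowest in the vestibular N tumor, at 130.4 RPKM, with 229 to 430 RPKM over the retro-orbital, 189 to 314 RPKM over the cheek and 142 to 226 RPKM over the meninges tumors. All 9 genes were detected, and its part in the Atf3 and Ppp1r15a values was not tested.

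**Figure D5:**
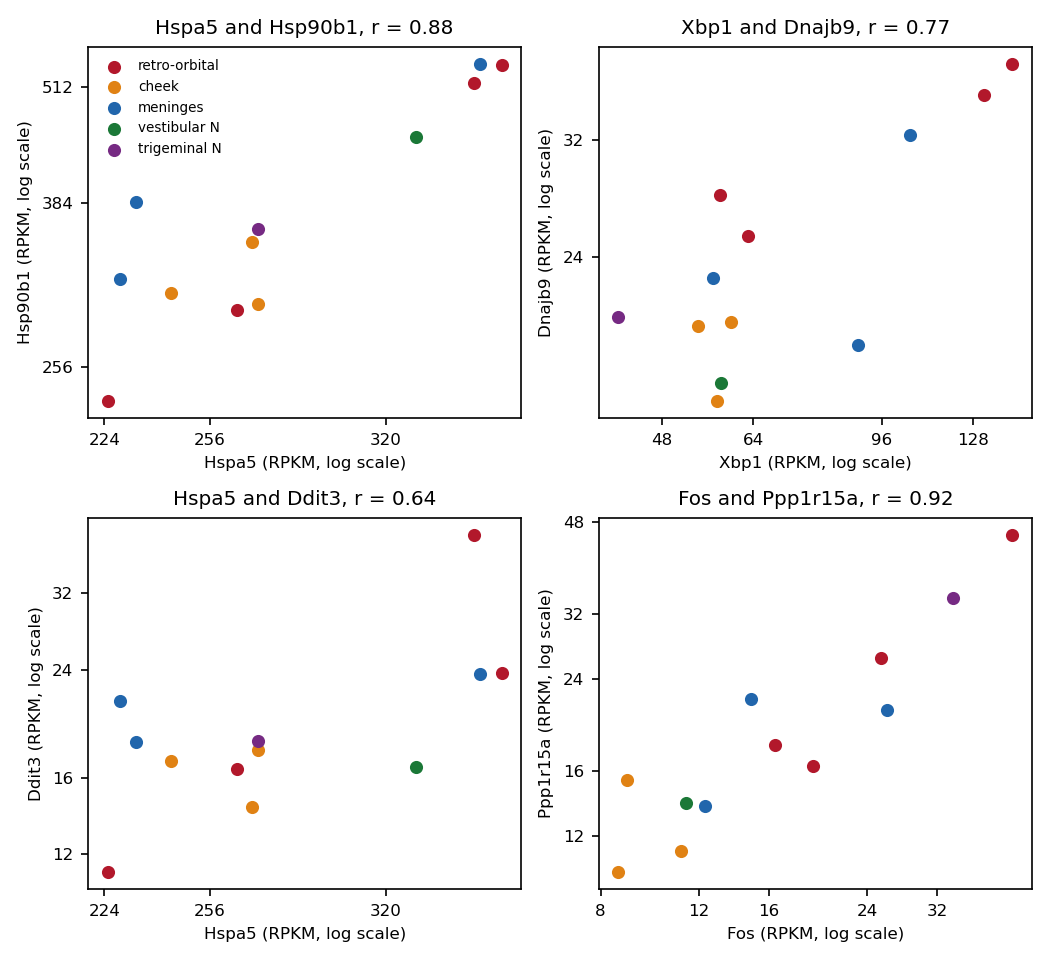
Levels in RPKM of 4 pairs of genes, on log axes, with 1 point per tumor colored by location and Pearson's r of log2(RPKM + 1) above each panel. For Hspa5 with Hsp90b1 and with Ddit3, 4 tumors lie apart from 8 on the x axis, and for Fos with Ppp1r15a the points spread along the whole range.

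Myc, a driver in human rhabdoid tumors, ranged from 13.3 RPKM in meninges 2 to 59.2 RPKM in retro-orbital 1. Its r was 0.00 with Hspa5 (permutation p = 0.99, rho -0.01, permutation p = 0.97), -0.43 with Dnajb9 (permutation p = 0.16, adjusted p = 0.38, rho -0.48, permutation p = 0.12) and 0.26 with Ddit3 (permutation p = 0.42, adjusted p = 0.63, rho 0.00, permutation p = 1). The last value turned to -0.32 without retro-orbital 1. None of these relations could be told from 0 with 12 tumors. Col1a1, a collagen gene of fibroblasts and bone, and Ptprc, a leukocyte marker, had an r with Hspa5 of -0.25 (permutation p = 0.42, rho -0.17, permutation p = 0.60) and 0.38 (permutation p = 0.22, rho 0.31, permutation p = 0.33). The value of Ptprc and Hspa5 was -0.18 without retro-orbital 4 and meninges 2, the tumors farthest from the median of Ptprc, 0.63 without the vestibular N tumor (permutation p = 0.041, adjusted p = 0.11), 0.54 with quantile normalization and 0.78 with location means removed (exact permutation p = 0.075, adjusted p = 0.39).

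To ask which genes vary with each arm, every gene was then regressed on the log2(RPKM + 1) of Hspa5, Dnajb9 or Ddit3 over the 12 tumors with limma. With Hspa5, 0 of 15042 genes passed an adjusted p of 0.05 (0%) and 798 had an unadjusted p under it (5.31%). Of the 33 other genes of the response 11 had an unadjusted p under 0.05. All 13 of the ATF6/chaperone arm had a positive slope, against 8382 of the 15042 genes, and 9 of the 13 had an unadjusted p under 0.05. The smallest p were those of Hsp90b1, with a slope of 1.29 (SE 0.28, unadjusted p = 0.00050, adjusted p = 0.84), and Canx, with 1.07 (SE 0.24, unadjusted p = 0.00064, adjusted p = 0.85). The slope was larger for Sdf2l1 (1.48, SE 0.57) and Pdia4 (1.42, SE 0.36). The median slope of the IRE1/XBP1 genes was 0.17 and that of the PERK/ATF4 genes 0.05, against 0.08 over all genes. The genes outside the response with the smallest p and a positive slope were Mesdc2, a chaperone of the endoplasmic reticulum for receptors of the LDL receptor family (slope 1.75, SE 0.35, adjusted p = 0.84), Brip1 and Pus7, none past the adjusted threshold.

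With Dnajb9, 1 gene passed (0.00665%) and 2259 had an unadjusted p under 0.05 (15%). Of the 33 other genes of the response, 8 had an unadjusted p under 0.05. Among them were Herpud1 (slope 1.07, SE 0.24, adjusted p = 0.10), Atf6 (slope 0.80, SE 0.20, adjusted p = 0.14) and Xbp1 (slope 1.12, SE 0.28, adjusted p = 0.14). The slope was positive for 29 of the 33, against 7284 of all 15042 genes. The gene that passed was Osmr, the receptor of oncostatin M, with a slope of 2.68 (SE 0.30, limma adjusted p = 0.011). Lifr, the receptor of leukemia inhibitory factor, was among the next 7 (slope 2.38, SE 0.40, adjusted p = 0.067), with Arhgef6, Mvp, Tmem173, Gm15987, C1s2 and Blnk. Osmr was no longer called when 1 tumor per identifier was kept or location was a covariate. The fit called 0 genes without retro-orbital 4 and 30 without retro-orbital 3. Of the 8 macrophage and leukocyte markers, 7 had a positive slope on Dnajb9 and 4 an unadjusted limma p under 0.05. Of the 4 plasma cell markers tested, 4 had a positive slope and 3 an unadjusted limma p under 0.05. None of these markers passed the adjusted threshold, and the part of such cells in this fit was not tested.

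With Ddit3, 0 of 15042 genes passed (0%) and 869 had an unadjusted p under 0.05 (5.78%). The 7 genes of the response among these were all of the ATF6/chaperone arm, with Pdia4 first (slope 0.94, SE 0.20, unadjusted p = 0.00045, adjusted p = 0.57), then Pdia6, Canx, Hsp90b1, Pdia3, Calr and Hspa5. None of the other 7 genes of its own arm was among them. Hyal2 and Tnr had the smallest p outside the response, with an adjusted p of 0.23 each.

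The levels of the 34 genes were compared among the retro-orbital, cheek and meninges tumors with limma. No gene of the response passed an adjusted p of 0.05 in the test of any difference, against 6 of 14745 genes (0.0407%). With an unadjusted p under 0.05 there were 4, Atf3, Derl3, Dnajb9 and Ero1l, which is 11.8% of the 34 against 14.3% of all genes. Atf3 was the closest, with a mean of 10.6 ± 3.77 RPKM in the retro-orbital (SD, n = 4), 3.0 ± 1.61 RPKM in the cheek (SD, n = 3) and 6.22 ± 0.66 RPKM in the meninges (SD, n = 3), an unadjusted limma p of 0.0037 and an adjusted p of 0.20. The corresponding means of Derl3 were 2.42 ± 1.17, 1.14 ± 0.87 and 15.1 ± 14.8 RPKM (limma adjusted p = 0.24).

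In the pairwise contrasts 0 of the 34 genes passed either, where 4 genes did between cheek and retro-orbital (0.0271%), 3 between meninges and retro-orbital (0.0203%) and 7 between meninges and cheek (0.0475%). The direction was uneven. The cheek tumors were above the retro-orbital tumors in only 3 of 34 genes, against 7161 of all 14745 genes. The median log2 difference was -0.29 against -0.02 over all genes. The cheek tumors were below the meninges tumors in 29 of 34, against 9123 of all 14745 genes. The median difference (meninges minus cheek) was 0.35 against 0.16 over all genes. The counts among the 34 were 1 and 30 with each tumor scaled to the same sum, and 2 and 28 with quantile normalization. Quantile normalization moved the median of all genes for meninges minus cheek to -0.02. Cheek 2 and cheek 3 share the first part of their identifiers, and whether they came from 1 animal is not given. The macrophage and leukocyte markers lay the same way, with 7 of 8 lower in the cheek than in the retro-orbital tumors (median log2 difference -0.83) and 8 of 8 higher in the meninges than in the cheek (0.84). Their sums in the cheek tumors, 747 to 822 RPKM, lay below those in the retro-orbital (991 to 2348 RPKM) and meninges tumors (1148 to 1786 RPKM), which overlapped each other. Of all genes, 11.1% had ranges that did not overlap between retro-orbital and cheek tumors, and 28.6% between cheek and meninges tumors. By the mean of each location, all 8 muscle genes were higher in the cheek than in the retro-orbital tumors (median 0.87). None of them had an unadjusted limma p under 0.05 in this contrast. Their sums overlapped, at 32.1 to 586 RPKM in the cheek and 12.1 to 227 RPKM in the retro-orbital tumors, with cheek 1 at 32.1 RPKM. The part of either cell type in these differences was not tested. The other 109 genes of the pathway that were tested, from kinases of eIF2 alpha to translocation, folding, degradation and amino acid genes, had a median of 0.03 for cheek minus retro-orbital and -0.03 for meninges minus cheek. The 38 other folding and export genes among them lay opposite to the 34, with 28 of 38 higher in the cheek than in the retro-orbital tumors (median 0.16) and 12 of 38 higher in the meninges than in the cheek (median -0.26). With the same sum these counts were 24 and 15, and with quantile normalization 25 and 14. None of the 109 passed an adjusted p of 0.05 in any of these fits or in those on Hspa5, Dnajb9 and Ddit3.

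Counted as ranges that do not overlap, 7 of the 34 genes separated the retro-orbital from the cheek tumors, against 11.1% of all genes. Atf6, Eif2ak3, Herpud1, Dnajb9, Atf3 and Ppp1r15a were higher in every retro-orbital tumor, and Sec61b was lower. For Dnajb9, the retro-orbital tumors lay between 25.3 and 38.6 RPKM and the cheek tumors between 16.8 and 20.5 RPKM. For Herpud1 the ranges were 38.9 to 91.5 and 26.6 to 37.3 RPKM. Between retro-orbital and meninges tumors, 2 genes separated, Syvn1 and Derl3, both higher in the meninges, against 9.34% of all genes. Between cheek and meninges tumors 9 did, which is close to the 28.6% of all genes. Of these Pdia4, Pdia6, Creld2, Syvn1, Derl3, Atf3 and Ddit3 were higher in the meninges, and Sec61b and Asns in the cheek.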

How the data were processed

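RNA of the 12 tumors was extracted with the RiboPure kit and sequenced after removal of ribosomal RNA (TruSeq Stranded, RiboZero Gold). Per the labels, the authors' processing notes name bcl2fastq 2.17, STAR, HTSeq, edgeR, limma and the mm10 genome. According to the study's methods, uniquely mapped reads were counted on RefSeq genes. The values the authors deposited are RPKM, 1 for each gene in each tumor, and counts were not used here. The transcript length behind each RPKM is not given in the sources used here.

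Read totals were recovered from the steps between RPKM values, with lengths from GENCODE M21 as a start. Genes at 1 RPKM or more in at least 3 fitted tumors were tested with limma 3.58.1 in R 4.3.3 on log2(RPKM + 1), with a trended, robust prior and Benjamini-Hochberg adjustment at 0.05. Fold changes on this scale understate those of low genes. Correlations used 100000 permutations, or exact ones where stated. Scripts were tested on simulated data. Among 24060 listed genes, 27 names are dates left by a spreadsheet, and these were kept but never named. Tumors are numbered within a location in the order of the samples, which pairs nothing.

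The genes, arms, marker lists and pairs were chosen with earlier results of these data known. The adjusted p-values of the pairs do not cover that choice. Named genes are the 34, the called genes of the pathway list, the up to 8 others with the smallest p and a positive slope per regression, Myc, Smarcb1 and markers that moved with a result. Pseudocount, filter, scaling, prior, tumors, covariate and index gene were varied. Promoter motifs were searched on both strands in RefSeq sequences (GRCm38.p6), which read along the gene in the transcripts of GENCODE M21 for 26 of 31 genes and against it for none.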

Additional observations from a re-analysis of the deposited data

Results flagged for a closer look

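Among the 4 retro-orbital tumors, 2 of the 34 genes had 1 tumor far from the others, both in retro-orbital 4. Its gap to the nearest tumor was 0.875 of the range of the 4 for Hyou1 (43.0 RPKM against 23.5 to 25.9 RPKM) and 0.872 for Sdf2l1 (33.0 RPKM against 7.82 to 11.1 RPKM). With 34 genes screened, chance alone gives about 1.7 such results.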

How the results depend on the processing

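No gene of the response passed the adjusted threshold in the location test or in the regressions on Hspa5, Dnajb9 and Ddit3 under any alternative run. The number of all genes called by location was 6 and became 10 without the filter, 12 with each tumor scaled to the same sum, 19 with a prior without trend and robust fitting and 0 with 1 tumor per identifier, and 0 to 198 when 1 tumor was left out (198 without cheek 1, 56 without retro-orbital 3). For Hspa5 it was 0 to 1 when 1 tumor was left out. For Dnajb9 it was 52 with the same sum, 0 with 1 tumor per identifier, 0 with location as a covariate, 14 with Edem1 as the index and 0 to 30 when 1 tumor was left out. Of the 21 pairs, 3 passed with 1 tumor per identifier, 0 with location means removed (an alternative added after the data were seen) and 2 to 6 when 1 tumor was left out. The cause of these moves was not tested. The r of Col1a1 and Hspa5 turned to 0.082 with quantile normalization. That of Myc and Hspa5 turned to -0.0019 (pseudocount 0.1), -0.46 (quantile normalization), -0.21 (same sum) and -0.068 (location means removed). Leaving out 1 tumor gave ranges of r from -0.31 to 0.24 for Myc and Hspa5, -0.32 to 0.42 for Myc and Ddit3, -0.42 to 0.33 for Atf4 and Ddit3, -0.55 to 0.29 for Ddit3 and Trib3 and -0.39 to 0.23 for Ddit3 and Asns, in each case lowest without retro-orbital 1. With location means removed, Dnajb9 and Ddit3 had an r of -0.14 and Fos and Atf3 one of -0.036. No paired analysis was possible because the labels carry no replicate numbers. The ranks of the arms moved by less than their spread within locations.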
